A study of Mus musculus with 8 samples.

Results

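Absorptive enterocyte and brush border genes, a set of 40 genes chosen by name, were followed in the RNA of sorted Lgr5-GFP+ intestinal stem cells. All 40 were found by symbol among the 25485 genes of the deposited signal table and were joined by Ensembl identifier to the table of raw counts, which holds 53801 genes. The set was made of 12 digestive enzymes, 9 genes of lipid handling, 7 transporters, 7 genes of microvillus structure, 3 genes of metabolism and 2 others.

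By the study's account 4 mice carried each genotype, β-catGOF; Mll1-/- or β-catGOF; Mll1+/-, and each of the 8 libraries is taken here as 1 mouse. Both groups carried the Lgr5-EGFP-IRES-CreERT2 driver, an inducible activating mutation of β-catenin and at least 1 inducibly deleted allele of Mll1, the histone methyltransferase encoded by *Kmt2a*. The controls were thus heterozygous, and no library without β-catGOF was analysed here. Mutagenesis was induced at 4 to 6 weeks of age with tamoxifen at 50 mg/kg on 3 consecutive days, and crypt cells were taken 10 days later, stained for EpCAM, CD45 and CD24 and sorted by flow cytometry. The driver acts in cells that express *Lgr5*, so the design concerns stem cells and their recent descendants. The set followed here is named for a cell type that the sort was not meant to collect. Whether the RNA of its members came from such cells or from the stem cells themselves was not tested. The comparison asks how the level of enterocyte genes in these sorted cells differed between the Mll1 genotypes.

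Enterocytes are the absorptive cells of the intestinal epithelium. They arise from crypt stem cells and carry on their apical side a brush border, a dense array of microvilli built on bundled actin and held together at the tips by protocadherins. Enzymes and transporters sit in the brush border membrane and complete the digestion and uptake of sugars, peptides and lipids, and absorbed fat is rebuilt into triglyceride and packed with apolipoproteins into chylomicrons.

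Libraries held 14468751 to 16847793 counts on genes. The members together took 0.138 to 0.156% of the counts in the Mll1-/- libraries and 0.111 to 0.147% in the Mll1+/- libraries. *Kmt2a* was not lower in the libraries labelled Mll1-/- (53.5 to 78.5 CPM) than in those labelled Mll1+/- (48.9 to 64.9 CPM), with a log2 fold change of 0.24 (adjusted p = 0.71, edgeR). The counts cover the whole gene and need not register the loss of single exons. The study also saw Mll1-depleted crypts beside non-recombined ones in Mll1-/- mice, and the share of mutated cells in these libraries was not measured. The genotypes below are therefore those of the labels. CPM, the usual depth-scaled unit of read counts, were computed on TMM-adjusted library sizes, and a log2 fold change is the Mll1-/- minus the Mll1+/- level. Over all libraries, the stem cell genes *Lgr5* and *Olfm4* were at 215 to 308 and 8080 to 22900 CPM, and the leukocyte gene *Ptprc* at 0 to 0.957 CPM. Of 8 immune markers, 5 stayed under 2 CPM in every library, but *Cd74* was at 85.3 to 228 CPM. The Paneth cell gene *Defa24* was at 727 to 3540 CPM. No unsorted library is among the 8, so these levels do not measure the purity of the sort. Library J_7135, labelled Mll1-/-, stood apart since its Spearman correlation with the other libraries, taken over genes, reached no more than 0.909. For the results that rest on it most, the value without it or its own level is given. Animal and library numbers formed 2 sets with 2 libraries of each genotype in each, J_7075, J_7096, J_7079 and J_7100 in the first and J_7135, J_7136, J_7134 and J_7139 in the second. Sex is not labelled. The Y-linked *Ddx3y* was at 19.8 to 97.4 CPM in J_7075, J_7096, J_7135 and J_7134 and at most 0.258 CPM in the other 4 libraries, and *Xist* was at 208 CPM in J_7135 and 404 to 759 CPM in those 4. In the first number set these transcripts separated the libraries as genotype did, so that sex and genotype cannot be told apart there, and J_7135 held both. Whether J_7135 holds the RNA of a single mouse was not tested.

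The members covered a wide range of levels, and several markers of mature enterocytes were close to 0. Per kilobase of transcript, *Fabp2*, which encodes the intestinal fatty acid binding protein, was the most abundant member in the Mll1+/- libraries at 179 ± 31.6 CPM per kb (SD, n = 4), rank 407 of 35767 genes with a count. *Vil1* (37.7 ± 3.06), *Fabp1* (31.2 ± 20.1), *Slc5a1* (29.2 ± 5.47) and *Dpp4* (28.7 ± 4.26 CPM per kb) followed, and neighbours in this order of 4 did not differ beyond the larger of their SDs. In all, 10 members lay above the 90th percentile of these genes and 10 lay below the 50th. At the low end were *Alpi* (intestinal alkaline phosphatase), *Lct* (lactase), *Slc15a1* (the peptide transporter PEPT1) and *Slc6a19* (a transporter of neutral amino acids), which summed to 1.2 to 2.81 CPM in the Mll1+/- and 0.394 to 1 CPM in the Mll1-/- libraries. The upper limit that a count of 0 allows, 3 counts, came to 0.162 to 0.241 CPM depending on the library and covers counting error only.

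Of the 40 members, 32 passed the filter on low counts and 8 did not. The 8 were *Alpi*, *Lct*, *Treh* (trehalase), *Plb1* (phospholipase B), *Slc15a1*, *Slc6a19*, *Gsta1* (a glutathione transferase) and 2010106E10Rik, with 0 to 18 counts per library and at most 1.36 CPM. Their groups all overlapped, and the mean CPM of 7 of the 8 was lower in the Mll1-/- libraries. Fitted without the filter, they had adjusted p-values of 0.6 to 0.909 by edgeR.

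None of the 32 tested members reached an adjusted p under 0.1 by edgeR (Benjamini-Hochberg over 16445 genes, two-sided), where 14 genes, or 0.0851%, did so among all genes tested (0.0365% lower and 0.0486% higher). The smallest adjusted p among the members was 0.166, that of *Apoa1*. At an unadjusted p under 0.05, 10 members were lower and 2 were higher, against 3.75% of all genes that were lower and 5.40% that were higher at this p. By other tools, DESeq2, the tool of the study, called 6 members and limma-voom with quality weights called 3. Of all genes, DESeq2 called 2.47% and limma-voom 0.626%. The values below are therefore described as levels in single libraries with their fold changes, and for no member did the edgeR test find a difference.

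By direction, 22 of the 32 tested members had a log2 fold change below 0 and 10 had one above 0, with a median of -0.45, against 49.2% below 0 and a median of 0.01 over all genes tested. Summed over all 40 members, the level was 1300 to 1390 CPM in the Mll1-/- and 1290 to 1570 CPM in the Mll1+/- libraries, which overlapped. Of the 40, the mean CPM was lower in the Mll1-/- libraries for 29 and higher for 11. The roles differed in this. The 9 lipid handling genes were all below 0 (median -1.08), as were 5 of the 8 tested enzymes (median -0.91) and 4 of the 5 tested transporters (median -0.50), while 6 of the 7 genes of microvillus structure were above 0 (median 0.32). These counts carry no test, and genes that come from the same libraries are not replicates of the genotype. In these bulk libraries, fewer cells of a type and less RNA per cell cannot be told apart.

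**Figure D1:**
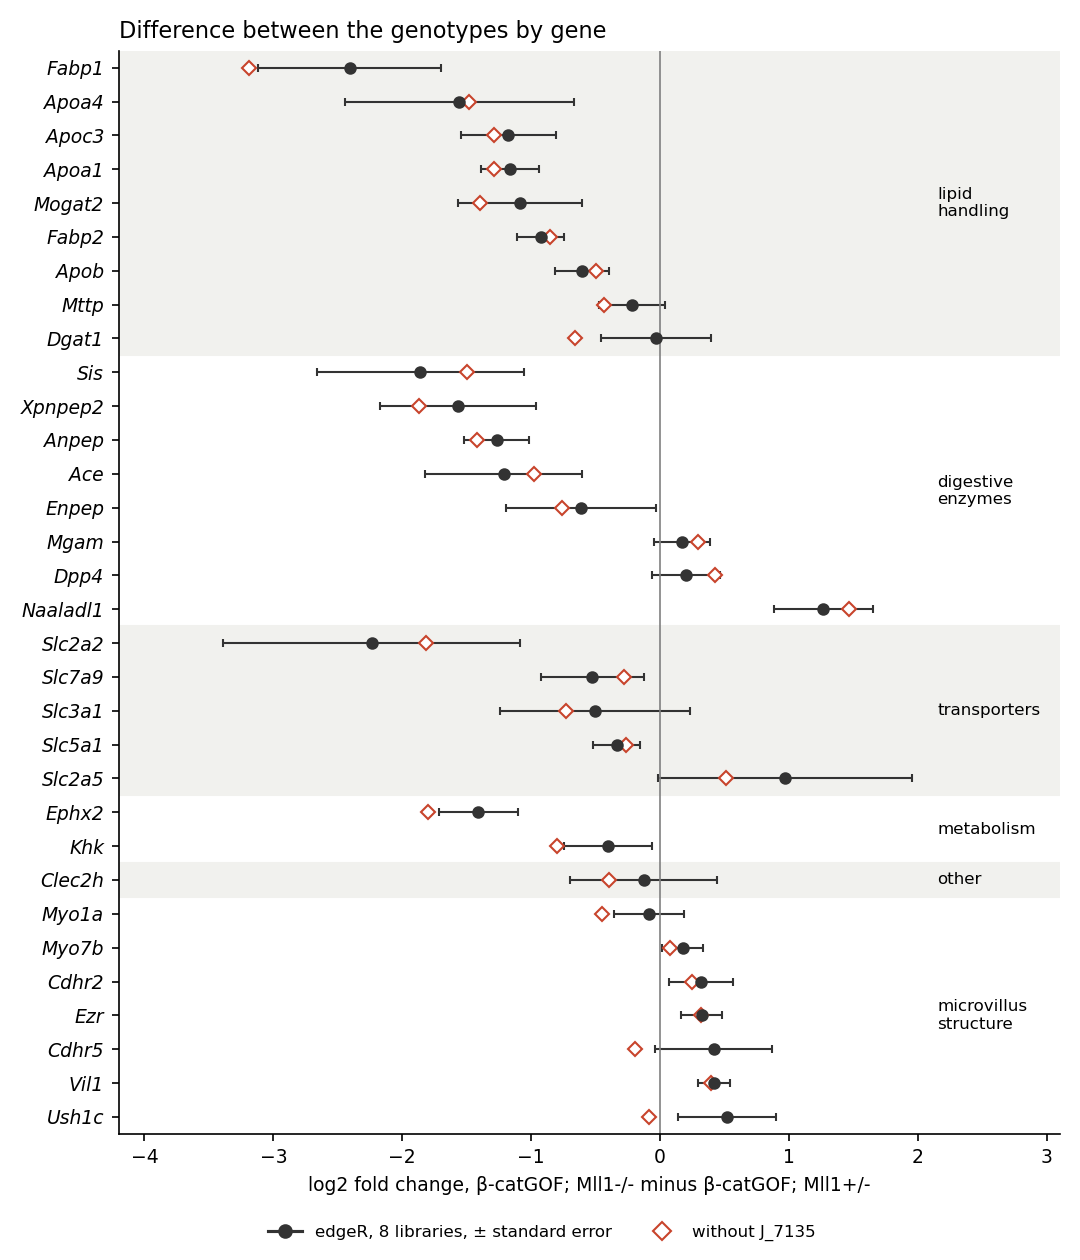
Log2 fold change (x axis) of each of the 32 tested members (y axis, grouped by role), β-catGOF; Mll1-/- minus β-catGOF; Mll1+/-. Filled points with bars are edgeR estimates from 8 libraries with their standard errors, and open diamonds are estimates without J_7135. All 9 lipid handling genes lie left of 0, and without J_7135 *Ush1c* and *Cdhr5* move from the right to the left of 0.

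When the libraries were scaled by their total counts alone, without the TMM factors (0.864 to 0.995 for Mll1+/-, 1 to 1.13 for Mll1-/-), the median of all genes moved from 0.01 to 0.19. Of the lipid handling genes 8 were then below 0 and *Dgat1* was above, at 0.17, and all 7 microvillus genes were above 0, with medians of -0.87 and 0.51. The gap between the roles was thus present under this scaling as well, with all values moved upward.

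The promoters of 5 members whose values are described below are shown as sequence. RefSeq start sites of GRCm38.p6 gave 37 windows for 34 of the members, each reaching from 250 bases before to 50 bases after the start of the transcript. *Apoa1*, *Fabp1* and *Fabp2* stand for the lipid genes with lower levels, *Anpep* for the enzymes with lower levels and *Vil1* for the structural genes with higher levels. Capitals mark letters that match, on either strand, one of 4 motifs searched. For GATA factors this was AGATAA and also the variant TGATAA. For HNF1 it was GTTAAT, part of the full site. For HNF4 it was CAAAGTCC, and for CDX factors it was TTTATNG.

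Apoa1 (chr9:46228380-46228679, plus strand): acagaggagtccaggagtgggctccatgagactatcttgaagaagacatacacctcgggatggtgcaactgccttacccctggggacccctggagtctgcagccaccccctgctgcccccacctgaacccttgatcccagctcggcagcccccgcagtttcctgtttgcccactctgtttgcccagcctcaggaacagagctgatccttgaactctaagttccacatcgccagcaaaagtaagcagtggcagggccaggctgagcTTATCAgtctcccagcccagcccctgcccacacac
Fabp1 (chr6:71199629-71199928, plus strand): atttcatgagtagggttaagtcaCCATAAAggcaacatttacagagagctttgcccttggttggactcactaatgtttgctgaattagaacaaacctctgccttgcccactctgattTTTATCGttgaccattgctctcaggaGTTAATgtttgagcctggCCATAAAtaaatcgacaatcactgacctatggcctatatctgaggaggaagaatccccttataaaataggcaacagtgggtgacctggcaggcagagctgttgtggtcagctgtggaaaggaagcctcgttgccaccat
Fabp2 (chr3:122894822-122895121, plus strand): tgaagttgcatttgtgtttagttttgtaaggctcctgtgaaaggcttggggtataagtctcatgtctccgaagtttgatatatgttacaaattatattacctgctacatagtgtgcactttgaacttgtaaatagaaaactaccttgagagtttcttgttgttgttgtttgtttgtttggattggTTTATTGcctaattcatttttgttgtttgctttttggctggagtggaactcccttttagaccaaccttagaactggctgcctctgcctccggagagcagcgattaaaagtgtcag
Anpep (chr7:79848161-79848460, minus strand): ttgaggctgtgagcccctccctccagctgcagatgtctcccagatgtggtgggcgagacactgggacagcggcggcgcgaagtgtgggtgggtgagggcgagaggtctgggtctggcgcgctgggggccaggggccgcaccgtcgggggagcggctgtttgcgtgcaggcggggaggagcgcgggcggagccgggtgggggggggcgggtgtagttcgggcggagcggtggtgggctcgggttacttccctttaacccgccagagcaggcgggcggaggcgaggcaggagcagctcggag
Vil1 (chr1:74409134-74409433, plus strand): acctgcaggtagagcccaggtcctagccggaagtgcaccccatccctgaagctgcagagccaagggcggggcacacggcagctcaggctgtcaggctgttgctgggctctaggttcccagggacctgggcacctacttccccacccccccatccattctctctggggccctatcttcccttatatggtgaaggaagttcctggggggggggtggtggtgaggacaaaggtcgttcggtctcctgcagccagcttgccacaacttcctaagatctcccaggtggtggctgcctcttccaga

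In these windows, *Fabp1* held 3 matches of the CDX letters and 1 of the HNF1 letters, *Fabp2* held 1 of the CDX letters, and *Apoa1* held 1 of the GATA letters, downstream of its start. The windows of *Anpep* and *Vil1* held none of the 4, which says only that these letters are not there. The *Anpep* window lies within the annotated gene, which reaches to 79861059, so a start site further out was not searched. No match shared bases with a match of another motif in the windows shown. Among all 32851 promoter windows of this length, 10.9% held the CDX letters, 18.6% the GATA letters, 7.1% the HNF1 letters and 1.42% the HNF4 letters. Of the 37 windows of members, 10 held the CDX letters, 8 the GATA letters, 6 the HNF1 letters and 4 the HNF4 letters. Counted over the 34 genes, these numbers were the same. A match is a description of the letters and not evidence of binding.

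The fatty acid binding proteins carry fatty acids inside the enterocyte. *Fabp2* (ENSMUSG00000023057, chromosome 3 from 122895072 to 122899506 in GRCm38) was at 119, 87.9, 76.5 and 80.5 CPM in J_7075, J_7096, J_7135 and J_7136, and at 142, 212, 156 and 181 CPM in J_7079, J_7100, J_7134 and J_7139. All Mll1-/- libraries lay below all Mll1+/- libraries. The means were 91 ± 19.2 and 173 ± 30.5 CPM (SD, n = 4 each), which is -0.93 on the log2 scale (standard error 0.18, edgeR adjusted p = 0.172). Its differences within the number sets were -0.76 and -1.10. *Fabp1* (ENSMUSG00000054422, chromosome 6 from 71199827 to 71205023), the liver-type fatty acid binding protein, was at 1.65, 0.695, 7.25 and 3.35 CPM in J_7075, J_7096, J_7135 and J_7136, and at 6.76, 32.5, 12 and 17.7 CPM in J_7079, J_7100, J_7134 and J_7139. The groups overlapped through J_7135 and J_7079, which were close to each other. *Fabp1* had the largest fold change of the members, -2.41 on the log2 scale (standard error 0.71, edgeR adjusted p = 0.371), from means of 3.24 ± 2.89 and 17.2 ± 11.1 CPM (SD, n = 4 each). Without J_7135 the fold change of *Fabp1* was -3.19 with an adjusted p of 0.129 (edgeR), and over the 8 libraries limma-voom gave -3.32 and DESeq2 an adjusted p of 0.0174.

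Apolipoproteins form the protein shell of chylomicrons and high-density lipoproteins. *Apoa1* (ENSMUSG00000032083, chromosome 9 from 46228580 to 46230466), the main protein of high-density lipoprotein, was at 13.6, 10.2, 16.2 and 11.8 CPM in J_7075, J_7096, J_7135 and J_7136, and at 24.7, 37.3, 29.8 and 24.4 CPM in J_7079, J_7100, J_7134 and J_7139. Every Mll1-/- library was below every Mll1+/- library, by 2.24-fold in the means. On the log2 scale the difference was -1.16 (standard error 0.23, edgeR adjusted p = 0.166), and the number sets taken singly gave -1.33 and -0.94. *Apoc3*, an inhibitor of lipoprotein lipase, was at 4.72, 3.76, 4.92 and 2.76 CPM in J_7075, J_7096, J_7135 and J_7136 and at 4.79, 9.42, 8.58 and 13.9 CPM in J_7079, J_7100, J_7134 and J_7139. Its groups overlapped only in that J_7135 was just above J_7079, and its fold change was -1.18 (standard error 0.37, edgeR adjusted p = 0.407). *Apob*, the structural protein of the chylomicron, was at 34.2 to 53.3 CPM in the Mll1-/- and 48 to 81.6 CPM in the Mll1+/- libraries, with a fold change of -0.61 (standard error 0.21, edgeR adjusted p = 0.46).

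*Apoa4*, a further chylomicron apolipoprotein, was at 0 to 1.64 CPM against 1.52 to 3.03 CPM and had a fold change of -1.56 (standard error 0.89, edgeR adjusted p = 0.643) and of -3.28 by limma-voom. Of its exonic bases, 69.8% were shared with 2 other annotated genes, *Gm47528* and *Gm10680*, and reads that overlap more than 1 gene are left out of the counts, so its level is uncertain. *Apoa1*, *Apoc3* and *Apoa4* lie side by side in 14.9 kb, at 1.35 Mb from *Kmt2a* on the same chromosome, and *Treh* lies 0.117 Mb from it on the other side. The 62 tested genes within 2 Mb of *Kmt2a*, these apolipoproteins included, had a median log2 fold change of 0.04, with 30 below 0 and 32 above. Linkage to *Kmt2a* and genotype cannot be told apart in this design.

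Genes that build triglyceride and load it onto lipoproteins had overlapping groups. *Mogat2*, the monoacylglycerol acyltransferase that starts triglyceride synthesis from absorbed fat, was at 2.18 to 6 CPM in the Mll1-/- and 3.45 to 14 CPM in the Mll1+/- libraries (log2 fold change -1.08, standard error 0.48, adjusted p = 0.543, edgeR). *Dgat1*, which catalyses the last step, was at 27.6 to 33.4 CPM in 3 Mll1-/- libraries and at 94.6 CPM in J_7135, against 32 to 68.4 CPM in the Mll1+/- libraries. Its fold change was -0.03 (standard error 0.42) over 8 libraries and -0.66 without J_7135. *Mttp*, which loads lipid onto the apolipoprotein B, was at 38.8 to 40.8 CPM in the same 3 libraries and at 65.6 CPM in J_7135, against 40.1 to 77.6 CPM, with -0.22 (standard error 0.26) and -0.43 without J_7135. For both, J_7135 alone lay above the other libraries of its genotype.

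Summed over the 9 lipid genes, the level was 259, 229, 306 and 220 CPM in J_7075, J_7096, J_7135 and J_7136, and 356, 449, 355 and 476 CPM in J_7079, J_7100, J_7134 and J_7139. The groups did not overlap in this sum. *Fabp2* made up a large part of it, and without *Fabp2* the sums were 140 to 229 CPM and 199 to 294 CPM, which overlapped through J_7135 alone. The other 3 Mll1-/- libraries were at 140 to 141 CPM.

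**Figure D2:**
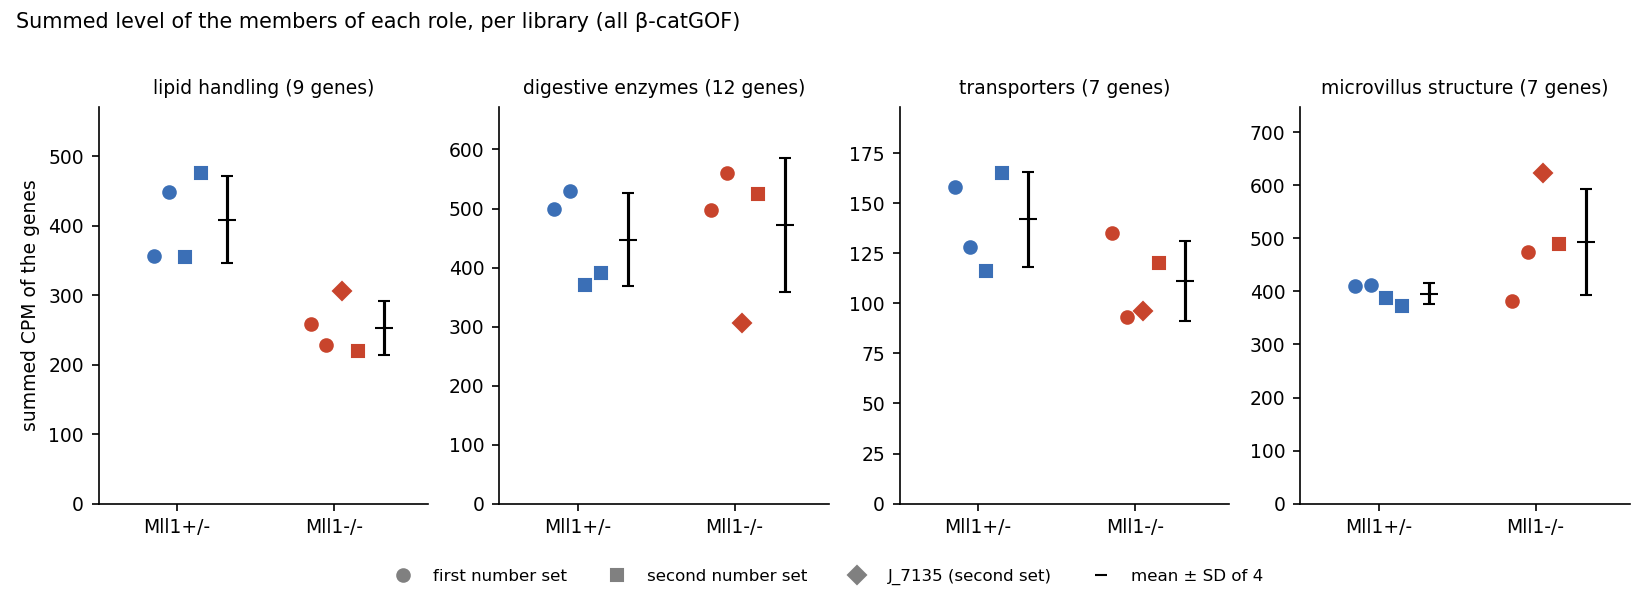
Summed CPM (y axis, from 0) of the member genes of 4 roles in each library, by Mll1 genotype (x axis), with circles for the first number set, squares for the second and a diamond for J_7135, and black bars for the mean ± SD of 4 libraries. Lipid handling sums of the Mll1-/- libraries (220 to 306 CPM) lie below those of the Mll1+/- libraries (355 to 476 CPM), and the microvillus sum is highest in J_7135 (623 CPM).

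The digestive enzymes split into members at high and at low level. *Anpep* (ENSMUSG00000039062, chromosome 7 from 79821803 to 79861059), aminopeptidase N of the brush border, was at 12.3, 13.7, 23 and 22 CPM in J_7075, J_7096, J_7135 and J_7136, and at 51.6, 38.3, 34.8 and 46.1 CPM in J_7079, J_7100, J_7134 and J_7139. The Mll1-/- libraries were all below the Mll1+/- libraries, with means of 17.7 ± 5.53 and 42.7 ± 7.59 CPM (SD, n = 4 each). The log2 fold change of -1.27 (standard error 0.25) had an adjusted p of 0.195 by edgeR, and it was -1.74 in the first and -0.82 in the second number set. *Sis*, sucrase-isomaltase, was at 3.48, 3.76, 0.325 and 1.05 CPM in J_7075, J_7096, J_7135 and J_7136 and at 16.9, 4.57, 7.62 and 2.26 CPM in J_7079, J_7100, J_7134 and J_7139, so that the groups overlapped and J_7079 was well above the rest. Without J_7079 the fold change was -1.16. The fold change of *Sis* was -1.86 with a standard error of 0.81 (adjusted p = 0.536, edgeR).

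*Mgam*, maltase-glucoamylase, and *Dpp4*, dipeptidyl peptidase 4, were the enzymes with the highest CPM, and both were on the other side of 0. *Mgam* was at 168 to 301 CPM in the Mll1-/- and 162 to 263 CPM in the Mll1+/- libraries, with a fold change of 0.17 (standard error 0.22, edgeR adjusted p = 0.862). *Dpp4* was at 105 to 285 CPM against 152 to 214 CPM, with 0.20 (standard error 0.26, edgeR adjusted p = 0.863). Its lowest library was J_7135, and the other Mll1-/- libraries, at 219 to 285 CPM, were above all Mll1+/- libraries. With 1 library left out, the fold change of *Dpp4* ranged from 0.016 to 0.42. Over all 12 enzymes, the sum was 306 to 560 CPM in the Mll1-/- and 370 to 529 CPM in the Mll1+/- libraries, which overlapped. Without *Mgam* and *Dpp4*, the other 10 enzymes summed to 27 to 40.4 CPM in the Mll1-/- and 52.9 to 81.1 CPM in the Mll1+/- libraries, with no overlap. *Anpep*, itself without overlap, was the largest part of this sum in every library but J_7096, where *Naaladl1* was. Both genes left out were above 0, so the lack of overlap follows in part from which genes were left out. It is not a separate result for 10 enzymes.

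*Naaladl1* (ENSMUSG00000054999, chromosome 19 from 6105782 to 6115792), an aminopeptidase, was the enzyme with the largest difference in the other direction. It was at 9.15, 19, 6.06 and 10.3 CPM in J_7075, J_7096, J_7135 and J_7136, and at 5.98, 4.71, 4.65 and 3.16 CPM in J_7079, J_7100, J_7134 and J_7139. The groups did not overlap, although J_7135 and J_7079 were close. On the log2 scale it was 1.26 higher (standard error 0.38, edgeR adjusted p = 0.384) and within the number sets 1.24 and 0.95, and DESeq2 gave an adjusted p of 0.0869. Other peptidases were low. *Xpnpep2*, a membrane aminopeptidase P, was at 0.174 to 0.919 CPM against 0.882 to 2.33 CPM (log2 fold change -1.56, adjusted p = 0.494, edgeR, and -2.23 by limma-voom). *Ace*, angiotensin-converting enzyme, was at 0.27 to 0.927 CPM against 0.773 to 2.25 CPM (-1.21, adjusted p = 0.597, edgeR), and *Enpep*, glutamyl aminopeptidase, was at 0.236 to 1.51 CPM against 1.2 to 2.01 CPM (-0.61, adjusted p = 0.799, edgeR). In each of these 3 the groups overlapped, at 3 to 39 counts per library.

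Transporters showed no member without overlap. *Slc5a1*, the sodium-glucose cotransporter SGLT1, was the most abundant of them and was at 79.5 to 120 CPM in the Mll1-/- and 95.2 to 141 CPM in the Mll1+/- libraries. On the log2 scale this was -0.34 (standard error 0.19, edgeR adjusted p = 0.631), and the number sets were alike, at -0.33 and -0.35. The 2 subunits of the transporter of cystine and dibasic amino acids, *Slc7a9* and *Slc3a1*, were at 3.25 to 10.5 and 0.531 to 9.26 CPM in the Mll1-/- libraries and at 7.46 to 15.8 and 2.63 to 11.2 CPM in the Mll1+/- libraries. Their fold changes were -0.53 and -0.50, with -1.55 for *Slc3a1* by limma-voom, and *Slc3a1* shares 26.4% of its exonic bases with *Prepl*. The facilitative sugar transporters went apart. *Slc2a2* (GLUT2) was at 0 to 1 CPM against 0.904 to 6.18 CPM (log2 fold change -2.24, standard error 1.15), where J_7134 alone exceeded 1.44 CPM and the fold change without it was -1.20. *Slc2a5*, the fructose transporter GLUT5, was at 1.45 to 6.27 CPM against 0 to 3.73 CPM (0.97, standard error 0.98), with a difference of -0.61 in the first and 2.81 in the second number set, so that its direction was not shared by the sets, and it was 1.62 without J_7100.

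Genes of microvillus structure were level or higher in the Mll1-/- libraries. *Vil1* (ENSMUSG00000026175, chromosome 1 from 74409376 to 74435559) encodes villin, the actin-bundling protein of the microvillus core. It was at 148, 182, 186 and 199 CPM in J_7075, J_7096, J_7135 and J_7136, and at 146, 139, 131 and 120 CPM in J_7079, J_7100, J_7134 and J_7139. The groups did not overlap, but J_7075 and J_7079 were close to each other. Mean levels of 179 ± 21.7 against 134 ± 10.8 CPM (SD, n = 4 per genotype) corresponded to 0.42 on the log2 scale (standard error 0.12, edgeR adjusted p = 0.371), and the number sets taken singly gave 0.21 and 0.61. *Ezr*, ezrin, which links the membrane to actin, was at 65.7 to 103 CPM against 57.3 to 71.7 CPM, with 0.32 (standard error 0.16, edgeR adjusted p = 0.589). *Myo7b*, the motor of the tip complex, was at 66.2 to 97 CPM against 59.5 to 81 CPM, with 0.18 (standard error 0.16).

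*Ush1c*, the harmonin scaffold that binds the protocadherins at microvillus tips, was at 32.8, 37.5, 119 and 45.7 CPM in J_7075, J_7096, J_7135 and J_7136, against 38.2 to 43.9 CPM in the Mll1+/- libraries. Its fold change of 0.52 (standard error 0.38) rested on J_7135, since it was -0.09 without this library. The same held for the protocadherin *Cdhr5*, at 29.6 CPM in J_7135, 6.14 to 14 CPM in the other Mll1-/- libraries and 8.5 to 13.4 CPM in the Mll1+/- libraries, whose fold change went from 0.41 to -0.19. Its partner *Cdhr2* was at 24.1 to 48.1 CPM against 25.1 to 38 CPM, with 0.32 (standard error 0.25), and the motor *Myo1a*, which ties the membrane to the actin core, was at 68.7 CPM in J_7135 and at 28.2 to 35.7 CPM in the other Mll1-/- libraries, against 41.2 to 47.8 CPM. Without J_7135, 4 microvillus genes were above 0 and 3 below, with a median of 0.08, and *Myo1a* was at -0.45 with all 3 of its Mll1-/- libraries below the Mll1+/- libraries. The higher level of the structural group was therefore carried in part by 1 library, whereas *Vil1* and *Ezr* were at 0.40 and 0.32 without it.

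**Figure D3:**
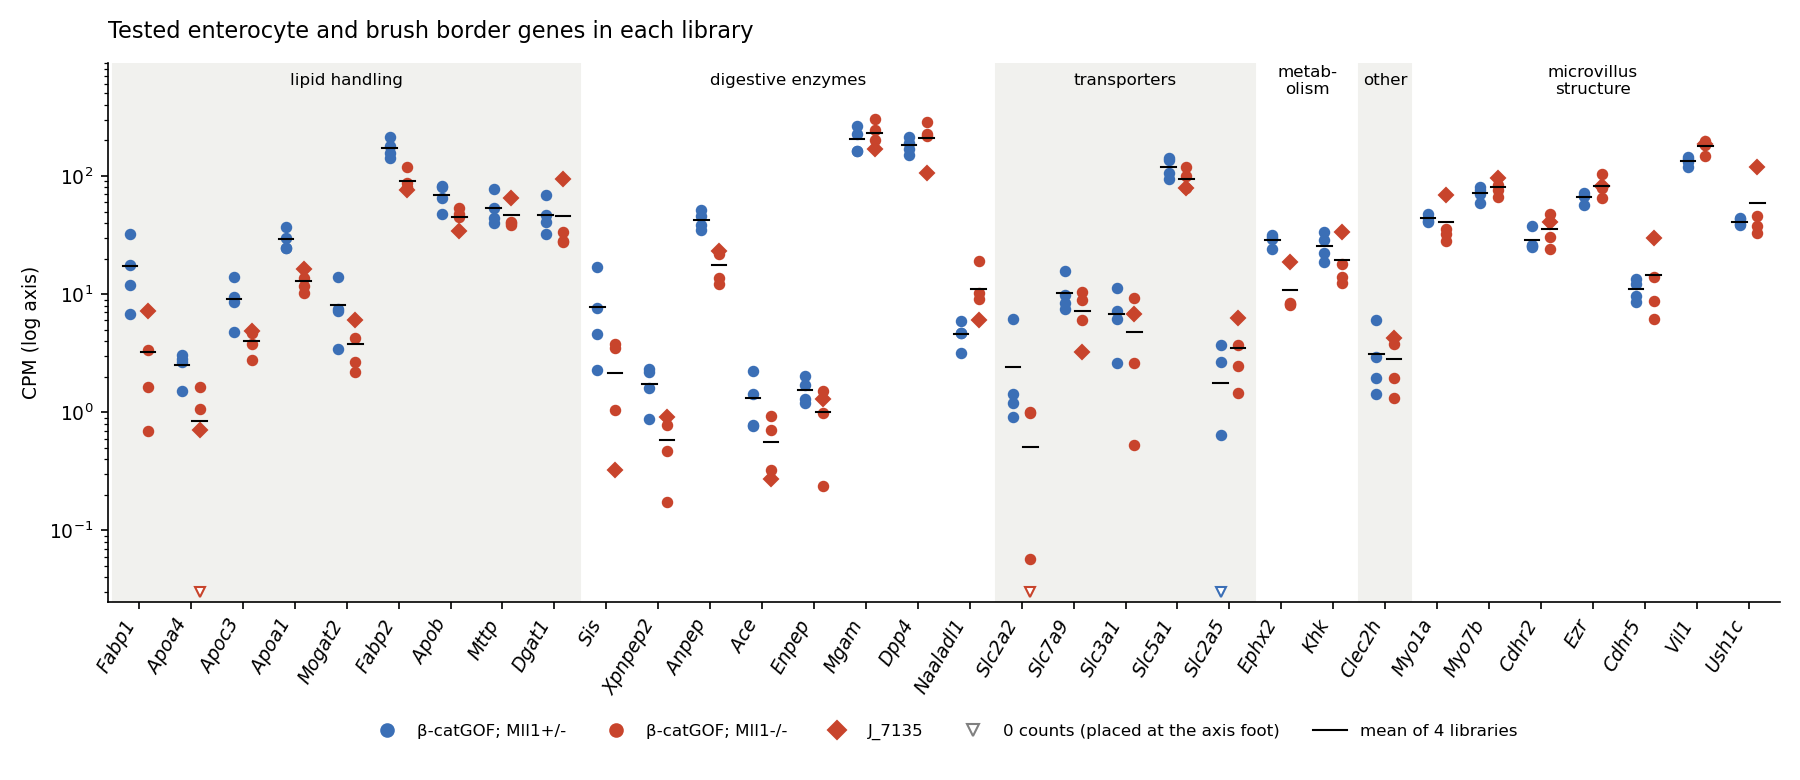
CPM on a log axis (y) of the 32 tested members (x, grouped by role and ordered by fold change) in the 8 libraries, with Mll1+/- in blue, Mll1-/- in red, J_7135 as a diamond, 0 counts as open triangles at the foot of the axis, and short lines for means of 4 libraries. Red points of *Apoa1*, *Fabp2*, *Anpep* and *Ephx2* lie below all blue points, and the diamond is the top red point of *Ush1c*, *Cdhr5*, *Myo1a*, *Dgat1* and *Mttp*.

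Of the metabolism members, *Ephx2* (ENSMUSG00000022040, chromosome 14 from 66084374 to 66124500), the soluble epoxide hydrolase that opens fatty acid epoxides, was at 8.14, 8.4, 18.6 and 8.28 CPM in J_7075, J_7096, J_7135 and J_7136, and at 30.6, 24.1, 31.6 and 29.2 CPM in J_7079, J_7100, J_7134 and J_7139. The groups did not overlap, and 3 of the Mll1-/- libraries lay between 8.14 and 8.4 CPM. The difference was -1.41 on the log2 scale (standard error 0.30, edgeR adjusted p = 0.2), and within the number sets -1.66 and -1.25. Without J_7135 it was -1.80 with an adjusted p of 0.0131 (edgeR), and limma-voom, which weights libraries by quality, gave -1.70 with an adjusted p of 0.0146. *Khk*, ketohexokinase, the first enzyme of fructose breakdown, was at 12.4 to 18 CPM in 3 Mll1-/- libraries and 33.5 CPM in J_7135, against 18.7 to 33.8 CPM (log2 fold change -0.40, standard error 0.34, and -0.80 without J_7135). The C-type lectin *Clec2h* was at 1.31 to 4.27 CPM against 1.44 to 6.1 CPM, with -0.13 (standard error 0.57).

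Among the tested members, 4 were lower without overlap of the groups (*Apoa1*, *Fabp2*, *Anpep* and *Ephx2*) and 2 were higher without overlap (*Naaladl1* and *Vil1*), or 12.5% and 6.25%. Over all genes tested, 2.94% were lower and 3.34% were higher without overlap, 6.28% in all. With J_7135 left out, 9 members were lower and 3 higher without overlap, where 4.58% and 5.28% of all genes were. With the same library left out, edgeR called 2 members, *Ephx2* and *Apoa1* (adjusted p = 0.0963), and 0.262% of all genes.

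The directions were compared within the number sets. Of the 32 tested members, 18 were lower in the Mll1-/- libraries of both sets, 6 were higher in both and 8 changed sign. Among the lipid genes, 8 of 9 were lower in both sets, and *Dgat1* was not. Among the microvillus genes, 3 were higher in both and 4 changed sign, with medians of -0.07 in the first and 0.49 in the second set, which holds J_7135. Medians of the lipid genes were -0.62 and -0.94.

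**Figure D4:**
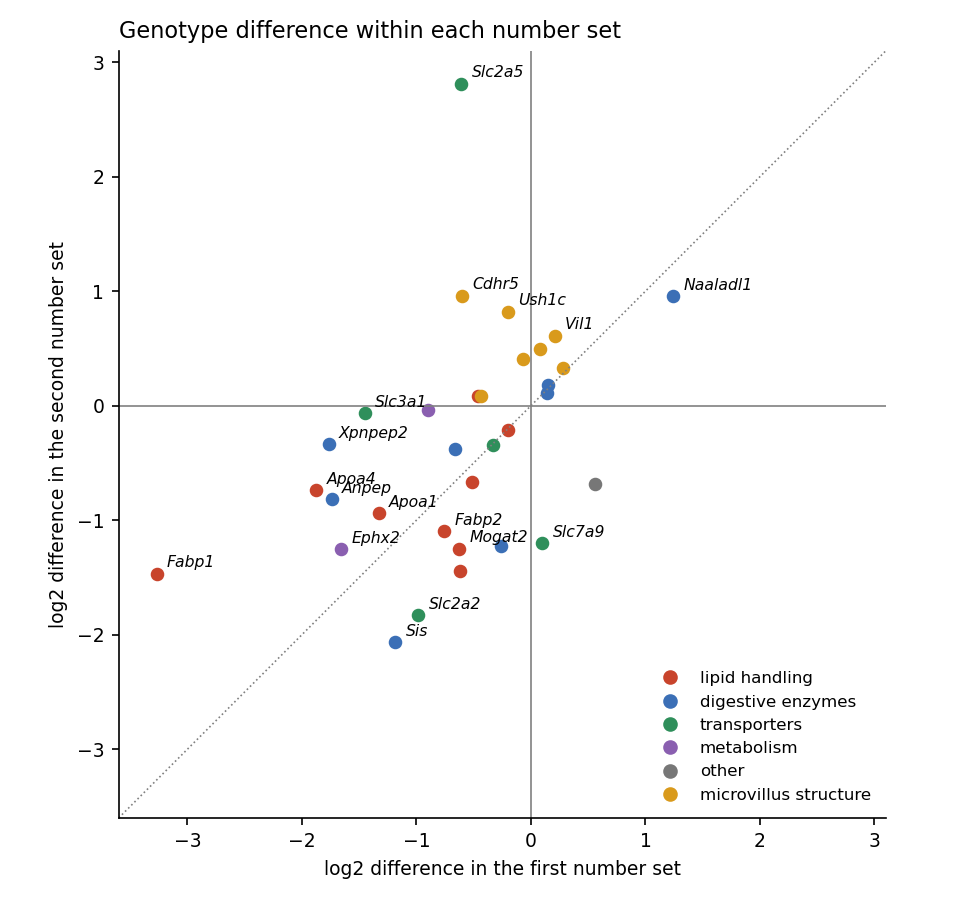
Difference in mean log2(CPM + 0.5) between Mll1-/- and Mll1+/- libraries in the first number set (x axis) and in the second (y axis) for the 32 tested members, coloured by role. The dotted line marks equal differences, 18 members lie at the lower left, below 0 in both, and *Slc2a5*, *Cdhr5* and *Ush1c* are negative in the first set and positive in the second.

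Within a genotype the median Pearson correlation was 0.047 over the 496 pairs of tested members. This is a median of signed values, so it does not give the size of single correlations. Among the highest, after the mean of each genotype was removed, the log2 levels of *Cdhr5* and *Khk* had a correlation of 0.946 over the 8 libraries, those of *Dgat1* and *Ush1c* one of 0.918 and those of *Anpep* and *Cdhr5* one of 0.902. These values share their libraries and their depth, and all genes of these 3 pairs were at their highest Mll1-/- level in J_7135. In J_7135, 16 of the 32 tested members were at the highest level of their genotype and 9 at the lowest.

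Other genes of the enterocyte programme were examined by the same roles in a list of 69 genes, of which 59 were tested. None was called by edgeR, 37 were below 0 and 22 above, with a median of -0.19, and 8 lower and 1 higher had an unadjusted p under 0.05. Among all genes tested, 3.75% were lower and 5.40% higher at this unadjusted p (edgeR). The groups of 6 were lower and of 1 higher without overlap, or 10.2% and 1.69%, against 2.94% and 3.34% of all genes. The medians were -0.36 for 4 tested enzymes, 0.07 for 12 lipid genes, -0.25 for 19 transporters, 0.04 for 10 microvillus genes and -0.29 for 14 genes of metabolism. The lipid genes of this list, 5 below 0 and 7 above, were thus not on the side of the lipid members. *Cps1*, carbamoyl phosphate synthetase of the mitochondrion, was at 733 to 1180 CPM in the Mll1-/- and 1540 to 2120 CPM in the Mll1+/- libraries, without overlap (log2 fold change -0.93, standard error 0.17, adjusted p = 0.151, edgeR). *Slc28a2*, a sodium-coupled nucleoside transporter, was at 3.82 to 6.9 CPM against 7.42 to 17.4 CPM, also without overlap (-1.22, adjusted p = 0.306, edgeR). *Mme*, the peptidase neprilysin, was at 11 to 14.9 CPM against 10.4 to 29.2 CPM (-0.85, adjusted p = 0.482, edgeR).

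In the other direction, *Abcb1a*, the drug exporter P-glycoprotein, was at 37.3, 42.9 and 44.6 CPM in 3 Mll1-/- libraries and 16.5 CPM in J_7135, against 12.2 to 17.2 CPM (log2 fold change 1.23, standard error 0.30, adjusted p = 0.251, edgeR). Without J_7135 it was at 1.46 with an adjusted p of 0.0208 (edgeR), past the threshold. *Fabp6*, the ileal bile acid binding protein, was at 1.25 to 2.97 CPM against 0.562 to 1.2 CPM, without overlap (1.07, adjusted p = 0.557, edgeR), and *Espn*, an actin bundler of microvilli, was at 1.97 to 4.81 CPM against 1.03 to 2.49 CPM (1.00, adjusted p = 0.567, edgeR). Smaller differences were found for *Abcg5*, a subunit of a sterol exporter (-0.56), for the brush border scaffold *Slc9a3r1* (-0.40) and for *Otc*, ornithine transcarbamylase (0.15), each with overlapping groups.

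Regulators of the enterocyte programme were measured in the same libraries. Of 14 listed, all were tested and none was called by edgeR, with a median of -0.15, 9 below 0 and 5 above. *Hnf4a*, a nuclear receptor that activates many enterocyte genes, was at 161, 177, 272 and 121 CPM in J_7075, J_7096, J_7135 and J_7136. The Mll1+/- libraries were at 176 to 215 CPM (log2 fold change -0.10, standard error 0.22), and J_7135 was the highest of the 8 libraries. *Cdx2*, the homeobox factor of intestinal identity, was at 2.96 to 10.4 CPM against 3.85 to 12.6 CPM (-0.27, standard error 0.46). *Gata4*, a factor of the proximal small intestine, was at 6.2, 4.52, 19.4 and 3.55 CPM in J_7075, J_7096, J_7135 and J_7136, against 29.3 to 37.8 CPM in the Mll1+/- libraries. It was the one regulator of the list without overlap, with a fold change of -2.04 (standard error 0.50, edgeR adjusted p = 0.251). Without J_7135 the fold change of *Gata4* was -2.86 with an adjusted p of 0.00749 (edgeR), past the threshold. Of the same family, *Gata6* was at -0.25 and *Gata5* at 0.12 over the 8 libraries.

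Other cell types that a sort could hold were checked by marker lists, whose part in the enterocyte differences was not tested. Genes of lower villus enterocytes such as *Reg3b* and *Reg3g*, antimicrobial lectins, were all 7 below 0 and summed to 2020 to 2570 CPM in the Mll1-/- and 2970 to 5570 CPM in the Mll1+/- libraries. Paneth cell markers were below 0 in 7 of 8 (1370 to 2590 against 2020 to 4880 CPM), goblet cell markers above 0 in 6 of 8 (688 to 1260 against 607 to 806 CPM), and the 5 tested enteroendocrine markers of 8 were below 0 (5.25 to 9.95 against 11.2 to 76.2 CPM). Stem cell markers were below 0 in 8 of 10 (11000 to 17800 against 23300 to 27800 CPM), a sum that is mostly *Olfm4*. Their median was -0.18, and *Lgr5* was at -0.06 (standard error 0.13). Of the 10, 2 were lower without overlap, *Olfm4* (-0.77) and *Slc12a2* (-0.87), and 1 was higher, *Axin2* (0.44). Of 8 stromal genes, *Vim* was at 44.3 to 116 CPM against 0.194 to 4.89 CPM, while the other 7 summed to 5.95 to 8.34 and 4.85 to 7.14 CPM. Of 8 immune markers, *Cd74* made up nearly the whole sum (118 to 229 against 93 to 230 CPM), and the mean CPM of 7 was lower in the Mll1-/- libraries and that of 1 higher. *Ptprc* was at 0 to 0.131 against 0.211 to 0.957 CPM, without overlap, from 0 to 2 against 3 to 16 counts. *Gzma* was at 0 to 0.531 against 0 to 9.15 CPM. The 8 tuft markers summed to 3.68 to 11.4 against 2.74 to 4.45 CPM. Erythroid genes summed to at most 2.33 CPM, and *Hba-a2* and *Hbb-bt* were at 0 counts in every library. Genes of the distal small intestine and colon summed to 102 to 231 against 159 to 269 CPM, with *Car1* at 0 throughout. Mitochondrial genes took 17.1 to 27.1% of the counts in the Mll1-/- and 23.3 to 30.1% in the Mll1+/- libraries.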

How the data were processed

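RNA of sorted cells was sequenced in 8 libraries after Smart-seq2 amplification, without molecular identifiers. Reads were placed on mm10 by the authors with GSNAP, and uniquely mapped reads were counted without strand per gene of Ensembl release 92 with featureCounts 1.6.3, and these counts were deposited without normalization. In a second deposited table, read here for symbols and coordinates, the signal is the count of a gene divided by a size factor. The deposited gene length in bases was used for levels per kilobase.

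The counts were filtered with filterByExpr (at least 10 counts in enough libraries), scaled with TMM and fitted with edgeR 4.0.16 (robust quasi-likelihood, genotype only, R 4.3.3). An adjusted p under 0.1 was taken as a call, after the false discovery rate of the study's methods, which the study applied to DESeq2 and not to edgeR. The spike-in transcripts, 92 in all and at most 36 counts per library, were left out. Levels within number sets are differences of log2(CPM + 0.5). No 2 libraries held the same counts. Each library was taken as 1 mouse and is 1 sample of its group.

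The members and the other lists were chosen from general knowledge with earlier results of these data known. Named genes were all 40 members, *Kmt2a*, marker genes set beside a result and, of the other enterocyte genes, those called or with the smallest p of each direction in each role. *Gm47528*, *Gm10680* and *Prepl* were named because they overlap members, and *Ddx3y* and *Xist* were chosen after their values were seen. Alternatives were DESeq2 size factors, no filter, DESeq2 1.42.0, limma-voom 3.58.1 with quality weights, a block of the 2 number sets, each library left out and, chosen after seeing the data, scaling by library totals only. Tested on simulated data of this comparison with 15886 genes, edgeR recovered 44% of the genes shifted by 1 on the log2 scale and 89% where the shift was 2, with 9.52% false among 147 calls. For DESeq2 these were 68% and 99%, with 37.5% false among 267 calls, and for limma-voom 40% and 86% with 6.67% of 135 false. The shifted genes were drawn only from genes above a minimum mean CPM. Counts were simulated once, from edgeR's own estimates of gene variability and without an outlying library. Recovery of members at low level, such as *Apoa4* and *Slc2a2*, and the false share of the calls in the real data were therefore not measured. Promoters came from RefSeq on GRCm38.p6. Figures were drawn with matplotlib 3.10.9.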

Additional observations from a re-analysis of the deposited data

Results flagged for a closer look

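Within the genotypes, 76 groups of 4 libraries were examined for a library far from the other 3 (32 members and the sums of 6 roles, in each genotype), and 6 held one, where chance gives about 1 in 20. In 4 of the 6, J_7135 was far above the other Mll1-/- libraries. It held 65.6 CPM of *Mttp* against 38.8 to 40.8 CPM in the others, 94.6 CPM of *Dgat1* against 27.6 to 33.4 CPM, 119 CPM of *Ush1c* against 32.8 to 45.7 CPM and 18.6 CPM of *Ephx2* against 8.14 to 8.4 CPM. Among the Mll1+/- libraries, J_7134 held 6.18 CPM of *Slc2a2* against 0.904 to 1.44 CPM, and J_7139 held 38 CPM of *Cdhr2* against 25.1 to 26.3 CPM.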

How the results depend on the processing

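No member was called by edgeR over the 8 libraries. The number of members called was 6 with the DESeq2 Wald test (*Apoa1*, *Fabp1*, *Fabp2*, *Anpep*, *Ephx2* and *Naaladl1*) and 3 with limma-voom (*Apoa1*, *Anpep* and *Ephx2*), and 0 to 2 with 1 library left out, where the 2 appeared without J_7135. All genes called, 14 by edgeR, were 406 with DESeq2, 103 with limma-voom, 47 without the filter, 0 with the number set block and 0 to 45 with 1 library left out, the highest without J_7135. Without the filter, 3359 genes had an unadjusted p under 0.05, against 1505. Without the filter all 40 members were tested, 29 lower and 11 higher.

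Of the 32 tested members, 26 kept their sign in every alternative (18 lower, 8 higher). *Cdhr5* and *Ush1c* went to -0.30 and -0.044 with limma-voom. *Clec2h* went to 0.11 with limma-voom, to 0.023 with the number set block and to 0.11 with library totals only, under which *Dgat1* went to 0.17 and *Myo1a* to 0.12. With 1 library left out, the values ranged from -0.40 to 0.42 for *Clec2h*, -0.43 to 0.0047 for *Mttp*, -0.66 to 0.20 for *Dgat1*, -0.45 to 0.059 for *Myo1a*, -0.19 to 0.66 for *Cdhr5* and -0.088 to 0.71 for *Ush1c*. The cause was not tested beyond the left-out library itself.

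The adjusted p of *Apoa1* ranged from 0.000511 (DESeq2) to 0.395 over the alternatives. With 4 mice per genotype, a common biological coefficient of variation of 0.435 and no molecular identifiers, changes near a log2 fold change of 1 are often missed. The 8 members left untested held at most 18 counts per library.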
